A study of Mus musculus with 19 samples.

Results

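The genes described here form the oxygen-sensing core of the hypoxia-inducible factor (HIF) pathway: the HIF subunit genes Hif1a, Epas1 and Arnt, the hydroxylase genes Egln1, Egln2, Egln3 and Hif1an, and the von Hippel-Lindau (VHL) ubiquitin ligase genes Vhl and Cul2. They were chosen by name, 9 genes of the 54749 represented in the ladder libraries, and all 9 were among the 18687 genes that passed the filter on low counts. HIF-alpha proteins, encoded by Hif1a and Epas1, are made continuously, and in the presence of oxygen the EGLN enzymes hydroxylate prolines in them. VHL, the substrate receptor of a ligase built on the cullin CUL2, then recognises the hydroxylated protein and marks it for degradation. HIF1AN hydroxylates an asparagine instead and blocks the binding of coactivators, whereas alpha subunits that escape pair with ARNT and switch on genes of glycolysis, vessel growth and the hypoxic response, Egln1 and Egln3 among them.

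The samples were mouse neural progenitor cells (NPCs), dividing precursors of neurons and glia, taken from the embryonic cortex of Mettl14 wild-type (WT) or Mettl14 conditional knockout (KO) animals. METTL14 is a subunit of the methyltransferase that places N6-methyladenosine on mRNA, and the labels name no Cre driver for the knockout. All cultures shared Neurobasal medium with heparin, B27 and both growth factors FGF2 and EGF (20 ng/ml of each), on Matrigel. In 4 WT and 4 KO ladder libraries the mRNA was separated by length into 7 bands before 75 bp paired-end sequencing, in 3 WT standard libraries it was sequenced unseparated as 50 bp single-end reads, and Nanopore long reads, from native RNA or from direct cDNA, were taken from 2 samples per genotype and chemistry. The labels do not say whether replicates were separate cultures or animals, so p-values measure only the spread between these samples, which may be technical.

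The ladder libraries held 103752444 to 126921887 estimated counts in WT and 104899560 to 118197946 in KO, against 12084507 to 13987929 in the standard libraries. Mettl14 itself lay between 20.2 and 28.4 CPM (counts scaled to library size) in the WT ladder libraries and between 6.13 and 8.07 CPM in KO, with no overlap. In the long-read assemblies it was 19.8 TPM (a scale that allows for transcript length) in WT and 13.7 in KO for native RNA, and 1.68 TPM in both genotypes for cDNA. For cell type markers, the counts given as higher or lower are calls in KO by edgeR at an adjusted p under 0.05. They are out of the listed markers that passed the filter on low counts. Among all genes tested 26.4% were called higher and 27.2% lower. Neural progenitor markers summed to 8038 to 8458 CPM in WT and 5821 to 6587 CPM in KO. Of these 10 markers 2 were called higher and 2 lower, while 7 estimates were positive and 3 negative. Meningeal fibroblast markers summed to 0.534 to 0.747 CPM in WT and 5.52 to 6.56 CPM in KO (4 of 5 higher), and mural cell markers to 69.1 to 111 and 117 to 143 CPM (6 of 6 higher). Neuronal markers summed to 235 to 346 CPM in WT and 217 to 303 CPM in KO (6 of 7 lower), oligodendrocyte lineage markers to 340 to 388 and 215 to 234 CPM (1 of 8 higher, 5 lower), and astrocyte markers to 752 to 1060 and 827 to 908 CPM (6 of 8 higher, 2 lower). Endothelial markers summed to 7.07 to 9.12 CPM in WT and 5.09 to 5.64 CPM in KO (4 of 6 higher, 2 lower, with Cdh5 at 0 in WT), and microglial markers to 0.766 to 1.13 and 1.28 to 1.90 CPM (2 of 2 higher, with C1qa and C1qb at 0). The part of these other cell types in the differences below was not tested, and in such bulk RNA fewer cells of a type and less RNA per cell cannot be told apart.

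The first comparison was KO against WT over the ladder libraries, with edgeR's quasi-likelihood test and Benjamini-Hochberg adjustment over all genes. Of the 9 genes, 5 were lower in KO at an adjusted p under 0.05: Egln3, Egln1, Cul2, Hif1an and Epas1. Among all genes tested 27.2% were lower and 26.4% higher, 53.6% in all. None of the 9 genes was called higher, by edgeR, DESeq2 or limma. In the edgeR fit 0 were higher at an unadjusted p under 0.05, since all 9 of its estimates were negative. On the TPM scale, which limma used, the mean of Egln2 was the higher in KO, at 26.9 against 23.4 TPM. The KO and WT libraries did not overlap for the 5 genes called, as held for 49% of all genes tested, and overlapped for Hif1a, Arnt, Egln2 and Vhl.

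**Figure D1:**
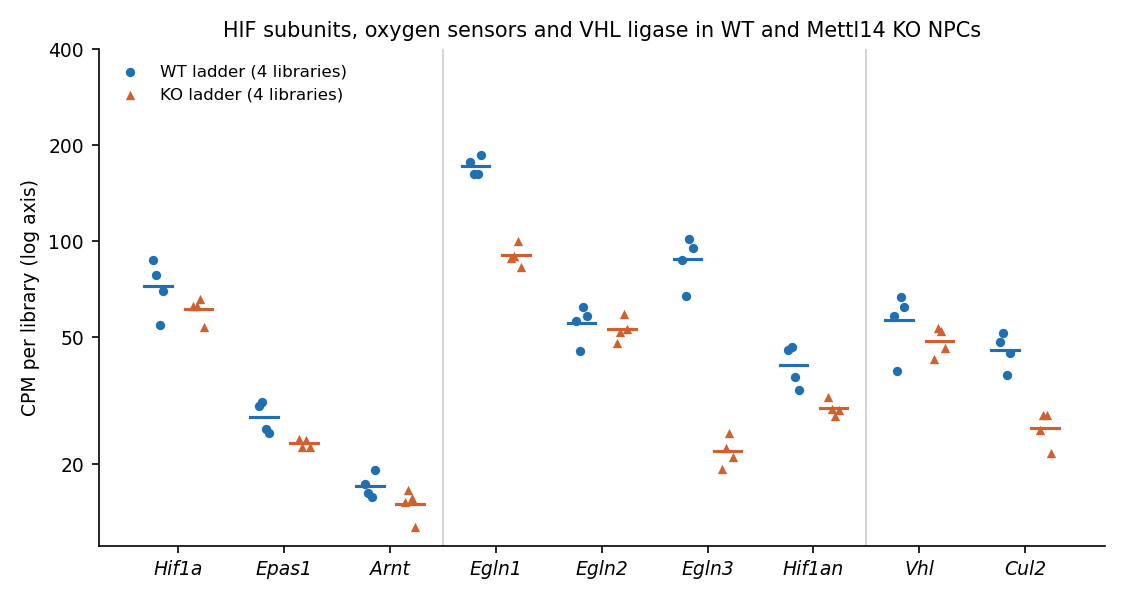
CPM of the 9 genes in each of the 4 WT (circles) and 4 KO (triangles) ladder libraries on a log axis; bars are group means, and vertical lines separate HIF subunits, hydroxylases and VHL ligase genes. Egln3 fell from 88.1 to 22.0 CPM and Egln1 from 172 to 90.4 CPM without overlap, while the libraries of Hif1a, Arnt, Egln2 and Vhl overlap.

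Among the HIF subunits, Hif1a, which encodes the HIF-1 alpha subunit (GRCm38 chr12:73901375-73947530, plus strand), measured 87.3, 78.2, 54.8 and 69.7 CPM in WT and 62.6, 62.7, 65.9 and 53.9 CPM in KO. WT replicate 3 lay inside the KO range and the other WT libraries above it. The log2 fold change was -0.24 (SE 0.14, edgeR adjusted p = 0.166), and it became -0.36 with an adjusted p of 0.0255 when WT replicate 3 was left out. Counts of Hif1a are uncertain where reads could come from the overlapping genes Gm15283, on the opposite strand, and Gm49321, because no label states whether the counting used strand. The 3 genes whose log2 CPM ran closest to Hif1a over the 8 ladder libraries were Kat2b, Tgs1 and Nckap1, with Pearson r of 0.993, 0.991 and 0.991, as a description of libraries that form separate genotype groups.

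Epas1, which encodes the HIF-2 alpha subunit (chr17:86753700-86833410, plus strand), measured 30.5, 31.4, 25.7 and 25.0 CPM in WT and 23.9, 22.7, 23.9 and 22.7 CPM in KO. The lowest WT library stood just above the highest KO library. Its log2 fold change of -0.27 (SE 0.10, edgeR adjusted p = 0.0426) was close to the threshold, and the adjusted p ranged from 0.0123 to 0.120 as single libraries were left out. It also missed the threshold with DESeq2 (0.0911) and with limma on TPM (0.472). Arnt, the partner shared by the alpha subunits (chr3:95434388-95497240, plus strand), measured 17.3, 16.3, 15.8 and 19.2 CPM in WT and 15.2, 16.5, 15.6 and 12.7 CPM in KO, and the groups overlapped. Its log2 fold change was -0.19 (SE 0.11, edgeR adjusted p = 0.168). Epas1 overlaps AC096777.1, and Arnt the pseudogene Gm42672, so their counts carry the same uncertainty as those of Hif1a.

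The hydroxylases held the largest differences of the 9 genes. Egln3, a prolyl hydroxylase gene strongly induced by hypoxia (chr12:54178981-54203860, minus strand), measured 87.6, 67.3, 102 and 95.6 CPM in WT and 19.3, 22.5, 25.0 and 21.1 CPM in KO. Every KO library was far below the lowest WT library, and WT replicate 2 was the lowest of its group. The mean fell from 88.1 ± 15.1 to 22.0 ± 2.37 CPM (SD, n = 4 each; log2 fold change -2.00, SE 0.14, edgeR adjusted p = 5.45e-07). The 3 genes closest to Egln3 over the 8 libraries were Ecel1, Pcdhb10 and Rasl12, with Pearson r of 0.9996, 0.9993 and 0.9991. Among the other genes described here, Egln3 ran closest to Egln1 (r = 0.982) and Cul2 (r = 0.890), again across genotype groups that stand apart.

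Egln1, generally regarded as the main HIF prolyl hydroxylase at normal oxygen (chr8:124908587-124949324, minus strand), measured 177, 162, 163 and 187 CPM in WT and 88.9, 89.9, 99.9 and 82.9 CPM in KO. The genotypes were widely separated and each was tight. The mean fell from 172 ± 11.8 to 90.4 ± 7.05 CPM (SD, n = 4 each; log2 fold change -0.93, SE 0.10, edgeR adjusted p = 1.68e-05). Hif1an, the asparaginyl hydroxylase (chr19:44562850-44576274, plus strand), measured 45.6, 46.5, 37.4 and 34.2 CPM in WT and 32.5, 29.7, 28.3 and 29.5 CPM in KO. The WT libraries split into a higher and a lower pair, both above KO, whose libraries were tight. The log2 fold change was -0.45 (SE 0.12, edgeR adjusted p = 0.00797), and limma on TPM gave -0.33 with an adjusted p of 0.135. Egln2, the remaining prolyl hydroxylase (chr7:27158658-27166802, minus strand), measured 56.3, 45.1, 62.2 and 58.2 CPM in WT and 47.9, 51.9, 59.1 and 53.2 CPM in KO. The groups interleaved, with a log2 fold change of -0.06 (SE 0.12, edgeR adjusted p = 0.670). Egln2 overlaps Cyp2t4 on the opposite strand, so its counts are uncertain in the same way.

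The promoters of Egln1 and Egln3 are shown because both genes fell and both are known HIF targets. HIF binds hypoxia response elements with the core letters ACGTG or GCGTG, searched here on both strands from 250 bases before to 50 after the RefSeq start (GRCm38.p6). Matches on opposite strands may overlap, as in CACGTG. Capitals mark the matches, written 5′ to 3′ on the gene's strand.
Egln1 promoter, chr8:124949205-124949504, minus strand: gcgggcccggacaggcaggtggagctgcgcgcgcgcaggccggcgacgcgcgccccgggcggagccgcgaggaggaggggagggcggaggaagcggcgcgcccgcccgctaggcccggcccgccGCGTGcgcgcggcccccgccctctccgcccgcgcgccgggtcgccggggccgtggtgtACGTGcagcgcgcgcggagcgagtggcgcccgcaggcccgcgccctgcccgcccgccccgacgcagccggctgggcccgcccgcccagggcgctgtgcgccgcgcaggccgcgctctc
Egln3 promoter, chr12:54203825-54204124, minus strand: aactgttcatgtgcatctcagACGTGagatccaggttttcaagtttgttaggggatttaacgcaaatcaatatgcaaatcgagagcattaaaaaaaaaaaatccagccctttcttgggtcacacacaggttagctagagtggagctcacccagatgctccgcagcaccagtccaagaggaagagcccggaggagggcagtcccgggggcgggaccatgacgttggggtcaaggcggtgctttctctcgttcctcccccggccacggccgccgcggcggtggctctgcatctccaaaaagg
The Egln1 window held 2 matches at a GC content of 86.0%, and the Egln3 window held 1 at 54.7%. Of all 32851 RefSeq promoter windows, 43.8% held at least 1 match. Among the other genes with an entry, the Hif1a window held 3, the Arnt window 1, the Egln2 windows 6 and 1, and the Hif1an and Vhl windows 0. The matches are descriptions of sequence, and no binding was measured.

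The VHL ligase genes differed from each other. Vhl, the substrate receptor (chr6:113623959-113631633, plus strand), measured 58.1, 39.2, 66.8 and 62.0 CPM in WT and 42.8, 53.5, 52.5 and 46.4 CPM in KO. WT replicate 2 was below every KO library and the other WT libraries were above them. The log2 fold change was -0.21 (SE 0.16, edgeR adjusted p = 0.275), and without WT replicate 2 it was -0.36 with an adjusted p of 0.0210. Cul2, the cullin scaffold, measured 48.3, 51.4, 38.1 and 44.7 CPM in WT and 25.6, 28.5, 28.4 and 21.6 CPM in KO, with a clear gap between the genotypes. The mean fell from 45.6 ± 5.72 to 26.0 ± 3.24 CPM (SD, n = 4 each; log2 fold change -0.81, SE 0.13, edgeR adjusted p = 0.000252). The 3 genes closest to Vhl over the 8 libraries were Desi1, Smarcd1 and Atg12, with Pearson r of 0.993, 0.987 and 0.987, and among the genes described here it was Egln2 (r = 0.910).

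Per length, on the TPM scale, the prolyl hydroxylases led the order of levels. In the WT ladder libraries the means were 39.2 ± 5.36 TPM for Egln1, 27.3 ± 3.85 for Egln3, 23.4 ± 2.71 for Egln2, 17.6 ± 2.65 for Vhl, 12.9 ± 2.88 for Hif1a, 12.7 ± 2.71 for Cul2, 5.44 ± 1.05 for Hif1an, 4.13 ± 0.712 for Epas1 and 3.54 ± 0.487 for Arnt (SD, n = 4). Egln3 and Egln2, Hif1a and Cul2, and Epas1 and Arnt lay within about their spread of each other. In KO the order was 26.9 ± 5.21 TPM for Egln2, 21.9 ± 4.28 for Egln1, 16.0 ± 3.25 for Vhl, 11.4 ± 2.25 for Hif1a, 7.33 ± 1.63 for Egln3, 6.37 ± 1.56 for Cul2, 4.17 ± 0.417 for Hif1an, 3.60 ± 0.478 for Epas1 and 3.51 ± 0.675 for Arnt (SD, n = 4). Egln3 thus moved from the second place to the fifth, and Egln2 and Egln1, whose KO values differ by about their spread, changed order.

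The second question was whether the genes changed the transcripts they use. Of 10532 genes with at least 2 tested transcripts, 19.6% changed usage at an adjusted p under 0.05 (edgeR, Simes method), and among the genes described here Egln2 and Cul2 did. At the level of single transcripts, 17.3% of 48272 tested rose and 17.9% fell, 35.2% in all. Passing the threshold were 9 transcripts of the genes described here. They were all those tested of Egln2 (2), Cul2 (3), Egln1 and Egln3, with Arnt-203 (6 tested) and Hif1an-201 (2 tested). None tested of Hif1a (2), Vhl (3) or Epas1 passed. In simulated data the usage test made more false calls than its nominal rate. The simulation drew each transcript independently and left out uncertain assignment of reads between transcripts. It therefore gives no false-call rate for these libraries. Usage of Hif1a, Hif1an and Vhl did not pass the test (adjusted p = 0.852, 0.867 and 0.354; edgeR), although without the filter on low counts that of Hif1a reached 0.00265. For Egln1 and Egln3 the ladder files list 1 annotated transcript each, so their usage could not be examined in the short reads. Epas1-201, Hif1an-201 and Vhl-201 held at least 98.1% in every ladder library.

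Egln2 had no detectable change in total counts in the ladder libraries, but its estimated counts were exchanged between its transcripts. Egln2-201 took 87.7%, 81.5%, 71.5% and 67.4% of the gene's estimated counts in WT and 14.3%, 20.0%, 16.9% and 17.4% in KO. Egln2-202 took 12.2%, 18.2%, 28.3% and 32.5% in WT and 85.6%, 79.8%, 83.0% and 82.5% in KO. The genotypes lay at opposite ends for both transcripts, and the 3 standard WT libraries, with 85.5%, 72.1% and 72.1% for Egln2-201, lay with the WT ladder libraries. The transcript log2 fold changes were -2.14 for Egln2-201 (SE 0.17, edgeR adjusted p = 6.65e-05) and 1.83 for Egln2-202 (SE 0.35, edgeR adjusted p = 0.00507), and the usage adjusted p was 0.000153. Both transcripts carry the same 1257 coding bases. They differ in the first exon, chr7:27166684-27166802 (119 bases) in Egln2-201 and chr7:27166316-27166413 (98 bases) in Egln2-202, and in the 3′ end, which is 330 bases shorter in Egln2-202.

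The long reads did not show the same exchange. The first intron of Egln2-201 carried 30.0 TPM in WT native RNA, 0 in KO native RNA, 3.16 in WT cDNA and 4.18 in KO cDNA. In KO native RNA the StringTie transcripts of Egln2 began at position 27165698, inside the second exon and short of either first intron. The 0 there therefore cannot tell which first exon was used. FLAIR transcripts of native RNA began at 27164859 in both genotypes, also short of it. The first intron of Egln2-202 was absent from all 4 StringTie assemblies and was present in 1 FLAIR assembly, that of WT cDNA. All assembled Egln2 TPM ended within 50 bases of the 3′ end of Egln2-201 in all 4 assemblies. The assemblies pool the replicates, so these values have no replicate error.

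Cul2 fell in total in the ladder libraries, and its estimated counts also moved between transcripts. Cul2-202 took 55.8%, 76.6%, 74.2% and 60.2% of estimated counts in WT and 13.1%, 2.64%, 18.5% and 2.29% in KO, and Cul2-205 took 42.1%, 21.4%, 23.7% and 37.1% in WT and 84.3%, 94.9%, 79.5% and 95.1% in KO. The genotypes did not overlap for either transcript. The log2 fold change was -3.55 for Cul2-202 (SE 0.75, edgeR adjusted p = 0.00865) and 0.77 for Cul2-205 (SE 0.24, edgeR adjusted p = 0.0342), and the usage adjusted p was 0.000485. The rise of Cul2-205 was not stable, with an adjusted p from 0.0141 to 0.0902 as single libraries were left out. Cul2-202 uses an acceptor 44 bases away from that of Cul2-205, which leaves 270 coding bases against 2235, and Cul2-205 has a 3′ end 992 bases longer. In the 3 standard WT libraries Cul2-202 took 73.0%, 71.9% and 74.9%, inside or near the WT ladder range, and Cul2-205 took 7.33%, 0% and 0%, below all of them. Cul2-201 made up part of the difference, with a mean of 13.4% in the standard and 1.96% in the WT ladder libraries.

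In the long reads the acceptor of Cul2-202 was nearly unused. It carried 0 TPM in native RNA of both genotypes and in KO cDNA, and 0.270 TPM in WT cDNA, whereas the acceptor of Cul2-205 carried 34.7 and 40.6 TPM in WT and KO native RNA and 3.75 and 3.84 TPM in WT and KO cDNA. By StringTie the 3′ ends went the other way in native RNA. All WT TPM, from 1 assembled transcript, ended where Cul2-205 ends, and all KO TPM where Cul2-202 ends. The FLAIR assemblies of native RNA did not show this switch. In both genotypes they held spliced transcripts that ended where Cul2-202 ends and a single-exon one that ended where Cul2-205 ends. Their transcript names recur between the genotypes, so these FLAIR assemblies are not independent. In cDNA, 95.0% of WT and 100% of KO TPM ended where Cul2-202 ends.

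Arnt showed a smaller shift. Arnt-203, which has an additional 45-base exon and a 3′ end 1673 bases shorter than that of the main transcript Arnt-202, took 1.96%, 1.39%, 6.50% and 2.82% of estimated counts in WT and 11.99%, 12.05%, 17.2% and 18.9% in KO. All KO libraries were above all WT libraries. The transcript log2 fold change was 2.11 (SE 0.45, edgeR adjusted p = 0.00800), while the usage of Arnt as a whole missed the threshold (edgeR adjusted p = 0.0710, and 0.0286 without WT replicate 3). The standard WT libraries gave 24.6%, 27.8% and 27.5%, above both ladder groups. The main transcript Arnt-202 averaged 77.1% in the WT and 68.3% in the KO ladder libraries but 62.6% in the standard ones, and Arnt-210, which retains an intron, 15.6%, 13.4% and 2.37%. In the long reads the introns on either side of the 45-base exon each carried 0.510 TPM in WT cDNA and 0.715 and 0.905 TPM in KO cDNA, and the intron that skips it 0.353 and 0.250 TPM in WT and KO cDNA. In native RNA neither form was assembled. Every Arnt transcript assembled there began downstream of the 45-base exon, so native RNA could not show either form. No assembled Arnt transcript ended where Arnt-203 ends.

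The exon of Arnt-203 and the alternatively joined exon of Hif1a are shown since they are among the parts in which the transcripts differ. They were chosen after the structures were seen. The letters come from the reference transcripts (GRCm38, plus strand). The Arnt exon is alternative as a whole, and capitals in exon 11 of Hif1a-201 mark the 42 bases that lie between its acceptor and the downstream one.
Arnt-203 exon 5, chr3:95466793-95466837: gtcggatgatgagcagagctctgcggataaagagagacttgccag
Hif1a-201 exon 11, chr12:73941688-73941852: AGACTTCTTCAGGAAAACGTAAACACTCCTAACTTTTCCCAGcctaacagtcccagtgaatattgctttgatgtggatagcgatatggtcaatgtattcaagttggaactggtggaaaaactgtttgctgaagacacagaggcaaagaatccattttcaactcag
Hif1a-202 uses another first exon together with the downstream acceptor. It took 4.94% and 1.68% of the Hif1a estimated counts in WT ladder replicates 1 and 2 and almost none in the other ladder libraries of either genotype, but 31.3%, 20.1% and 11.1% in the standard WT libraries. In the long reads its first intron was not assembled at all, whereas the downstream acceptor alone was used by 18.0% of Hif1a TPM in WT native RNA, 28.2% in KO native RNA, 30.6% in WT cDNA and 0% in KO cDNA. These levels are from StringTie; the FLAIR assemblies held 1 transcript with the downstream acceptor in each of the 4, KO cDNA included.

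**Figure D2:**
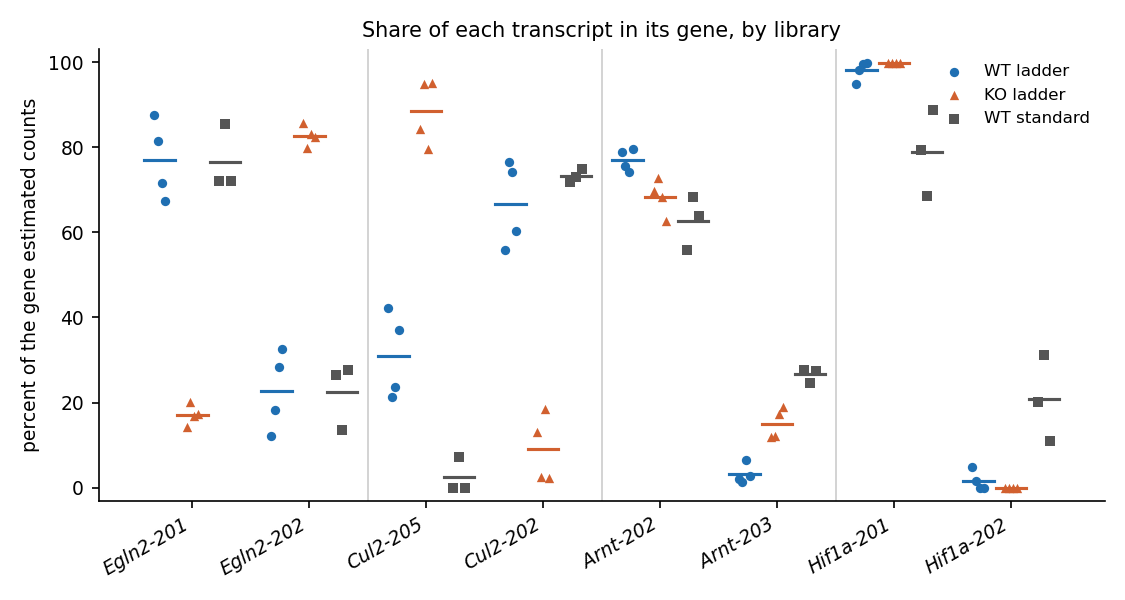
Percent of a gene's estimated counts assigned to each named transcript in the WT ladder (circles, 4 libraries), KO ladder (triangles, 4) and WT standard (squares, 3) libraries; bars are group means. Egln2-201 averaged 77.0% in WT and 17.1% in KO ladder libraries and Cul2-202 66.7% and 9.14%, and the standard libraries stand apart for Hif1a-202, Arnt-203 and Cul2-205.

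The long-read assemblies also held splice forms of Egln2 that lack an exon encoding part of the catalytic domain. This internal coding exon has 137 bases, as does its counterpart in Egln3, a length that leaves a remainder of 2 after division by 3, so that skipping it shifts the reading frame. Both exons are printed because the forms found turn on the Egln2 exon and the Egln3 exon shows what is shared, and they too were chosen after the structures were seen. Capitals mark the last 23 bases, which are missing in a form of Egln2 that uses an earlier donor (GRCm38, minus strand).
Egln2 exon 4, chr7:27159787-27159923: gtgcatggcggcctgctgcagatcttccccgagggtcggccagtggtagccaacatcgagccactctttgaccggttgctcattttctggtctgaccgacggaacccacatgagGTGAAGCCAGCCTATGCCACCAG
Egln3 exon 3, chr12:54183880-54184016: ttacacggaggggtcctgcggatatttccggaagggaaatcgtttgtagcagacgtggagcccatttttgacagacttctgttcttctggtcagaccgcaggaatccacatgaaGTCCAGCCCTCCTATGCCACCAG
The 2 exons were identical at 94 positions (68.6%), 19 of them among the last 23.

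In the StringTie assemblies the exon was skipped in 9.51% of Egln2 TPM in KO native RNA and 5.83% in WT cDNA, and in none in WT native RNA and KO cDNA. The earlier donor appeared in KO cDNA alone, at 2.04% of Egln2 TPM. The FLAIR assemblies, which carry no levels, held the skipped form in native RNA of both genotypes, 1 transcript in each, and not the earlier donor. FLAIR names of native transcripts recur between the genotypes, so those assemblies are not independent. A form of Egln2 whose second exon of 1109 bases lacks its last 359 bases was also assembled by StringTie. It took 28.1% of TPM in WT native RNA, 0% in KO native RNA, 5.31% in WT cDNA and 14.6% in KO cDNA. No FLAIR assembly held it. The FLAIR transcripts of native RNA began at 27164859, inside those 359 bases, so they could not show this form. The direction of this form in the StringTie levels turned between chemistries.

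The total long-read levels followed the short reads for some genes and not for others. Egln3 stood at 54.9 TPM in WT and 28.3 TPM in KO native RNA, lower in KO as in the ladder libraries. Hif1an stood at 9.12 and 2.07 TPM in native RNA by transcripts that share an annotated intron, but at 9.12 and 9.03 TPM when transcripts that only overlap its exons are counted, and at 0.724 and 0.273 TPM in cDNA by either count. Egln1 stood at 86.3 and 96.2 TPM in native RNA and at 8.03 and 9.42 TPM in cDNA, and Cul2 at 34.7 and 40.6 TPM in native RNA and at 4.02 and 3.84 TPM in cDNA. The fall of Egln1 and Cul2 in the ladder libraries therefore had no counterpart of like size in the assembled levels. Hif1a was lower in KO in both chemistries, at 105 and 73.5 TPM in native RNA and 4.63 and 3.44 TPM in cDNA, and so was Vhl, at 35.2 and 19.6 TPM and 2.53 and 1.85 TPM. Arnt stood at 7.93 and 9.96 TPM in native RNA and 1.33 and 1.16 TPM in cDNA, and Egln2 at 30.0 and 29.7 TPM and 3.16 and 4.18 TPM. By StringTie, Epas1 was assembled at an annotated intron only in WT cDNA, at 0.282 TPM. The FLAIR assemblies, which carry no levels, held Epas1-201 in cDNA of both genotypes. StringTie transcripts that only overlap Epas1 exons held 8.32 TPM in WT and 3.12 TPM in KO native RNA. In cDNA Egln3 reached 1.97 TPM in KO and 0 in WT by StringTie. In WT cDNA, StringTie transcripts that overlap its exons without sharing an intron held 0.806 TPM. The FLAIR assembly of WT cDNA did hold Egln3-201 with all its introns.

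**Figure D3:**
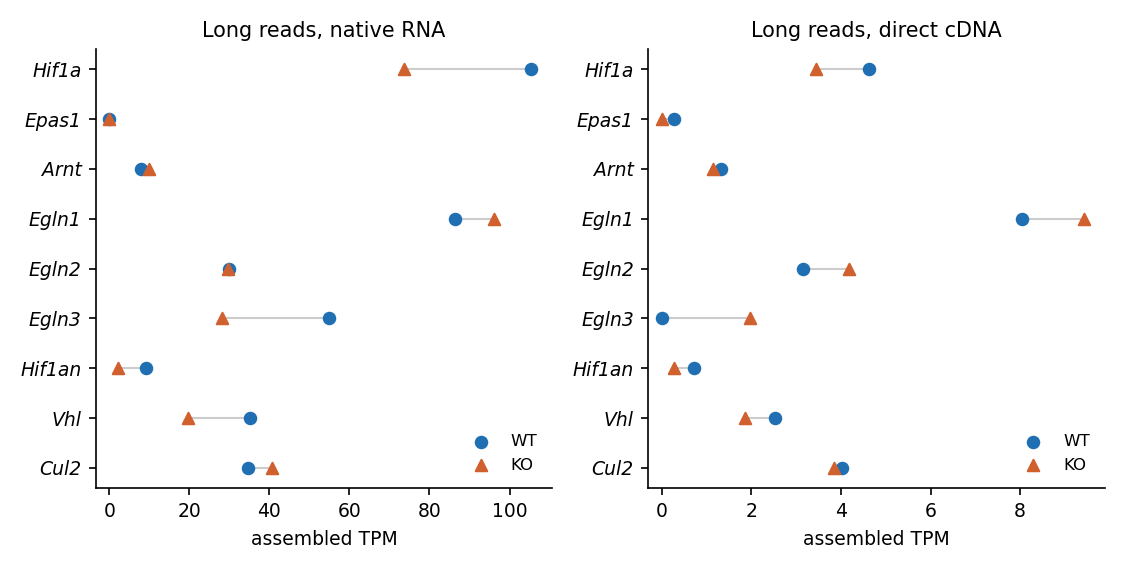
StringTie TPM of long-read transcripts that share an annotated intron with each of the 9 genes, in WT (circles) and KO (triangles). Native RNA is on the left and direct cDNA on the right. Each point is a single pooled assembly, with no replicates. Egln3 stands at 54.9 TPM in WT and 28.3 TPM in KO native RNA, and Egln1 is the higher in KO in both panels.

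The third comparison set the WT ladder libraries against the WT standard libraries, over targets present in all files. These libraries also differ in read length, pairing, instrument, depth and the target set used for counting. These differences cannot be told apart from the separation by length. Of all genes tested, 30.8% were higher and 30.3% lower in the ladder libraries, 61.1% in all, and the groups did not overlap for 62%. Of the 9 genes, 6 were higher (Epas1, Vhl, Egln3, Egln2, Egln1 and Hif1an) and 2 lower (Hif1a and Arnt). These directions depend on the scale: limma on log2(TPM + 0.5), where the median of all genes moved by -1.52, called 0 of the 9 genes higher and 7 lower, and the estimates of all 6 turned negative. On the CPM scale over shared targets, Hif1a measured 123, 112, 80.9 and 97.8 CPM in the ladder and 277, 185 and 173 CPM in the standard libraries. Its log2 fold change was -1.03 (SE 0.21, edgeR adjusted p = 0.00317). Arnt measured 24.4, 23.4, 23.3 and 26.9 CPM against 50.2, 45.9 and 39.8 CPM (log2 fold change -0.89, SE 0.12, edgeR adjusted p = 0.000447). For both genes every standard library was the higher, and the transcripts Hif1a-202 and Arnt-203 described above had their largest shares there.

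Epas1 measured 43.1, 45.1, 37.9 and 35.1 CPM in the ladder libraries against 24.8, 8.52 and 12.9 CPM in the standard ones (log2 fold change 1.39, SE 0.33, edgeR adjusted p = 0.00722). Vhl measured 82.0, 56.3, 98.7 and 87.0 CPM against 32.1, 38.5 and 40.8 CPM (log2 fold change 1.12, SE 0.20, edgeR adjusted p = 0.00176). In both genes all ladder libraries were the higher. The prolyl hydroxylases Egln2 and Egln1 had log2 fold changes of 0.80 (SE 0.15, edgeR adjusted p = 0.00200) and 0.64 (SE 0.14, edgeR adjusted p = 0.00540), also without overlap. Egln3 measured 124, 96.7, 151 and 134 CPM against 29.9, 82.8 and 81.2 CPM, where standard replicate 1 was far below the others (log2 fold change 0.96, SE 0.34, edgeR adjusted p = 0.0398). Without standard replicate 1 it was 0.65 with an adjusted p of 0.0139, and the call was lost without ladder replicate 1, 3 or 4 (adjusted p 0.0825, 0.109 and 0.0857). Hif1an (log2 fold change 0.46, SE 0.14, edgeR adjusted p = 0.0243) lost its call without ladder replicate 1, 2 or 3 or standard replicate 2 or 3, at adjusted p from 0.0535 to 0.101. Cul2 measured 68.1, 73.9, 56.3 and 62.7 CPM against 78.2, 77.3 and 67.9 CPM (log2 fold change -0.19, SE 0.13, edgeR adjusted p = 0.230), with overlap. Standard replicate 1 also stood apart in the summed CPM of HIF target genes, at 6451 against 10474 and 10819 CPM in the other standard libraries. Leaving it out kept 6 genes higher and 2 lower. Summed neuronal markers lay between 874 and 1911 CPM in the standard libraries and endothelial markers, almost entirely Pecam1, between 757 and 1732 CPM, against 330 to 497 and 9.91 to 13.1 CPM in the WT ladder libraries on this scale, and their part in these differences was not tested.

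**Figure D4:**
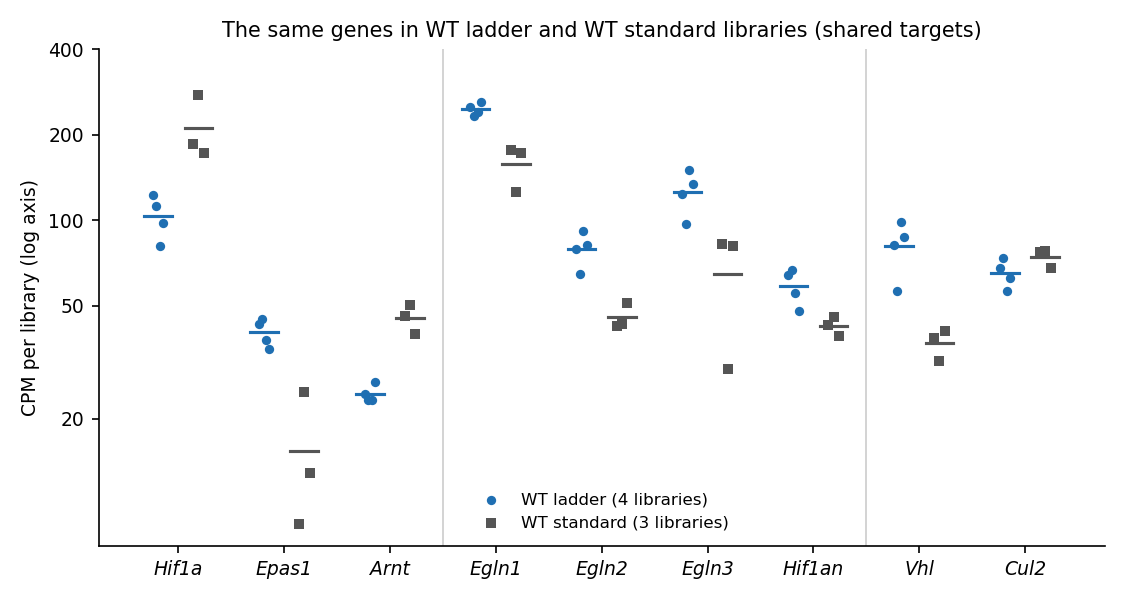
CPM over shared targets of the 9 genes in the 4 WT ladder and 3 WT standard libraries on a log axis, with bars at the group means. Hif1a and Arnt lie higher in every standard library, and Egln3 ranges from 29.9 to 82.8 CPM among the standard libraries.

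To place the 9 genes in their pathway, a list of 48 direct HIF target genes was examined in KO against WT ladder libraries. Of the 47 tested, 35 fell and 3 rose (edgeR adjusted p under 0.05), that is 74.5% lower and 6.38% higher against 27.2% and 26.4% of all genes, and the median log2 fold change was -1.22 against -0.03 for all genes. The list holds Egln1 and Egln3. Its summed level lay between 19250 and 20135 CPM in WT and between 7194 and 8877 CPM in KO. The largest falls were in Slc16a3, a lactate transporter (mean 39.0 to 2.69 CPM, log2 fold change -3.85), Loxl2, a collagen cross-linking enzyme (47.3 to 4.59 CPM, -3.37), and Ankrd37 (9.55 to 1.15 CPM, -3.06). The 3 that rose were Cited2, which encodes a competitor of HIF for its coactivators (log2 fold change 1.20), Narf (0.60) and Aldoc (0.36), a glycolytic enzyme gene that is also an astrocyte marker. In the StringTie long-read assemblies, of the targets assembled in both genotypes, 28 of 37 were lower in KO in native RNA. In cDNA 19 were lower and 19 higher. Another 5 were assembled in WT alone and 0 in KO alone in native RNA, and 5 and 3 in cDNA. The share of all assembled genes that were lower in KO was not examined.

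The other pathway genes moved less. Of 79 tested in 7 lists, 12 rose and 17 fell, 36.7% called against 53.6% of all genes. Among 12 genes of alternative HIF-alpha turnover, 4 rose and 2 fell: Siah2, which encodes a ubiquitin ligase that acts on EGLN proteins, rose with a log2 fold change of 1.41 (mean 12.5 to 33.1 CPM, edgeR adjusted p = 3.23e-07), as did Hsp90ab1 (0.87), Siah1a (0.81) and Siah1b (0.31), while Usp20 (-0.64) and Hsp90aa1 (-0.55) fell. Among 14 VHL partners and cullin regulators, only Cand1, the cullin exchange factor, rose (0.51) and Cops5, the catalytic subunit of the COP9 signalosome, fell (-0.28); the other 12 did not pass the test, while Cul2 itself fell. Among 7 other genes of the bHLH-PAS family, to which the HIF subunits belong, 3 fell: Arntl2 (-0.83) and, at low levels, Npas1 and Hif3a. Of 10 coactivators and inhibitors, Cited2, Ncoa1 (0.56) and Crebbp (0.52) rose and Cited1 (-0.43) and Pkm (-0.34) fell. Of 16 other oxygen-dependent dioxygenases tested, 2 rose, Plod1 (1.57) and the weakly expressed P4ha3, and 5 fell, led by the collagen prolyl hydroxylase gene P4ha2 (-1.33), Kdm6a (-0.60) and P4htm (-0.52). Of 10 mitochondrial and cytosolic enzymes that set 2-oxoglutarate, succinate and fumarate, Idh2 (0.77) and Ogdh (0.53) rose and the succinate dehydrogenase subunits Sdhc (-0.70), Sdhb (-0.40) and Sdhd (-0.35) fell. Of 10 genes of the mTOR arm, Rheb fell (-0.45).

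**Figure D5:**
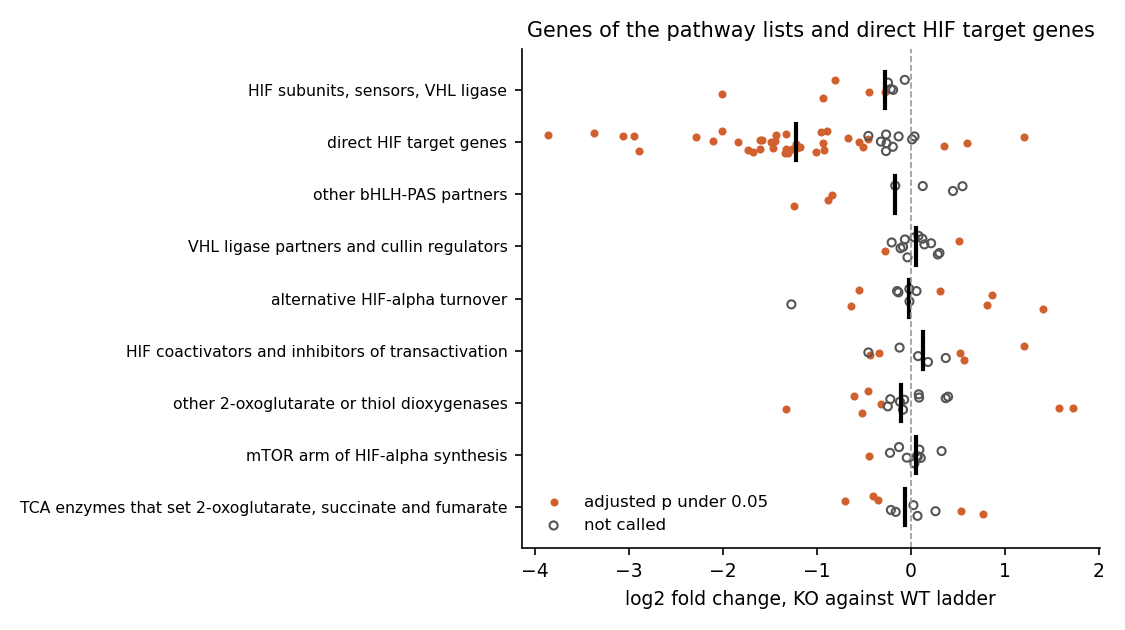
Log2 fold change in KO against WT ladder libraries of each tested gene of the 9 genes, the direct HIF target genes and 7 pathway lists; filled points have an edgeR adjusted p under 0.05, and bars mark the list medians. The target genes centre on a median of -1.22, whereas the pathway lists have medians between -0.17 and 0.13.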

How the data were processed

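The short-read files hold estimated counts and TPM per transcript, made by the authors; the submitters' processing notes name STAR 2.5.4b, StringTie and kallisto with GRCm38 and mm10, without roles. The long-read assemblies hold TPM that the authors deposited per assembled transcript, pooled over replicates; the notes name minimap2 2.17. No label states how the 7 bands were combined. Ladder files list 150173 targets, of which 11338 assembled targets without a known gene held 11.9% to 13.4% of counts and stayed out of gene sums. Estimated counts were summed by gene (GENCODE M21), rounded, filtered with filterByExpr, scaled by TMM (the CPM given here) and tested with edgeR 4.0.16 (R 4.3.3) quasi-likelihood, with Benjamini-Hochberg adjustment over all genes at 0.05, and transcript usage with diffSpliceDGE. The fits were tested on simulated data. DESeq2 1.42.0, limma 3.58.1 on log2(TPM + 0.5), no filter, shared targets, a replicate block and leaving out each library were alternatives. Standard replicate 2 lists 107368 targets and the others 116067, so the ladder-standard comparison used 105882 shared targets. The members and lists were chosen with earlier results of these data known. Named transcripts hold 10% or more of their gene; named list genes are up to 3 rises and 3 falls past the threshold with average log2 CPM of 1 or more, with further called genes named after their values were seen. Same-numbered libraries did not deviate together, so numbers were not treated as pairs. Log2 CPM used an added count of 0.5. Intron and end matches in long reads were exact and within 50 bases, respectively. Results on 1 further exon are not reported here.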

Additional observations from a re-analysis of the deposited data

Results flagged for a closer look

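The share of Epas1-201 in Epas1 estimated counts was 99.994% in KO ladder replicate 1 (2577.68 of 2577.84) and 100% in the other 3 KO ladder libraries. Because those 3 were tied, any gap, however small, would set this library apart from its group. It was the only such case in 44 groups of 4 libraries examined. Some groups, such as those of Egln1-201 and Egln3-201, stood at 100% in every library and could not be flagged. The chance rate of about 1 in 20 therefore does not apply to all groups.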

How the results depend on the processing

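Leaving out each library in turn gave 4 to 6 of the 9 genes lower and 0 higher in KO, 34 to 38 HIF targets lower, 22 to 30 other pathway genes called, 6 to 9 transcripts called, 2 to 3 genes with changed usage, and 4451 to 4855 genes higher and 4508 to 5274 lower. Against the standard libraries it gave 4 to 6 genes higher and 2 lower. Limma on log2(TPM + 0.5) called 3789 genes higher and 2068 lower in KO (edgeR 4926 and 5090), 3 of the 9 genes lower and 19 other pathway genes, with the median of all genes moved by 0.10. DESeq2 size factors, the DESeq2 Wald test and no filter each gave 4 genes lower, the call of Epas1 being lost. Without a filter 4 of the 9 genes changed usage. On the TPM scale the median of ladder against standard libraries moved by -1.52, 0 of the 9 genes were higher and 7 lower, and the signs reversed for Epas1 (-0.10), Egln1 (-0.95), Egln2 (-0.88), Egln3 (-0.53), Hif1an (-1.18) and Vhl (-0.58). Hif1a, Arnt and Cul2 kept theirs. The shared targets held 44.8% to 54.8% of TPM in the WT ladder and 89.9% to 99.4% in the standard libraries; the cause of the other changes was not tested.

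Same-numbered WT and KO libraries had correlations of deviations of 0.042, -0.007, 0.025 and 0.046, so the numbers were not treated as pairs. Differently numbered libraries ranged from -0.401 (KO replicate 1 with WT replicate 4) to 0.510 (KO replicate 1 with WT replicate 2). What these libraries share was not tested. With the replicate number as a block, 4 of the 9 genes were lower and 0 higher in KO, with 4922 genes higher and 5027 lower, 35 targets lower, 29 pathway genes, 6 transcripts instead of 9 and 2 genes with changed usage. The block gave 5 genes higher and 2 lower against the standard libraries, Egln3 losing its call (adjusted p 0.0765). Long-read values rest on single pooled assemblies and have no measured error.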
